A study of Mus musculus with 30 samples.

Results

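CD8+ T cells from 4T1 tumours of mice given C269 were compared with those of mice given a control antibody, in 5 libraries a side and 10 of the 30 libraries of the series. 4T1 is a mouse mammary carcinoma line, which carried green fluorescent protein in these wild-type mice. C269 is an antibody against extracellular nicotinamide phosphoribosyltransferase (NAMPT) and was given at 2.5 mg/kg in 2 doses a week for 1 month. The control group, CTRL, received IgG1. CD8+ cells were taken from the tumours with magnetic beads, a method that enriches a cell type without the purity of a sort. The libraries are those headed 21 to 25 (CTRL) and 26 to 30 (C269) in the deposited table of CD8 samples, and they are called here by these numbers. Whether each library came from a separate mouse is not given, and the p-values speak to the spread among these libraries, which may be technical.

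CD8+ T cells recognise peptides on major histocompatibility complex (MHC) class I molecules through their T cell receptor, and when activated they kill target cells with granzymes and perforin and release interferon-gamma. In tumours, long stimulation raises inhibitory receptors such as PD-1 (Pdcd1), whose ligand PD-L1 (Cd274) is induced by interferon-gamma. Inside cells, NAMPT catalyses the slow step in recycling nicotinamide to NAD. The form outside cells acts as a cytokine, and Toll-like receptor 4 is one receptor proposed for it. By its title, the study asked whether blocking extracellular NAMPT strengthens T cell responses through the PD-1 and PD-L1 pair.

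T cell markers in these libraries matched the CD8 label. Cd8a, a chain of the CD8 co-receptor, was at 445, 357, 494, 619 and 395 counts per 1000000 counts (CPM) in CTRL libraries 21 to 25 and at 476, 685, 436, 366 and 335 CPM in C269 libraries 26 to 30. In the 10 CD4 libraries of the series Cd8a was at 6.88 to 50.6 CPM. Cd4, which marks helper T cells, was at 3.08 to 12.2 CPM in CTRL against 5.22 to 27.9 CPM in C269, against 71.3 to 192 CPM in the CD4 libraries, and library 27 was the highest of the C269 libraries. Cd3e, a signalling subunit of the receptor complex, averaged 409 ± 39.8 in CTRL against 410.3 ± 59.2 CPM in C269 (mean ± SD, n = 5 in each group, as for all means given). The 3 identity genes had log2 fold changes, C269 over CTRL, of 0.00, SE 0.19 (Cd8a), 0.01, SE 0.14 (Cd3e) and 0.61, SE 0.67 (Cd4), and without libraries 27 and 29 of -0.15, SE 0.17, 0.12, SE 0.13 and -0.18, SE 0.64. SE is the standard error. Values in brackets after a gene are this log2 fold change with its SE over all 10 libraries and, where a second pair follows, without libraries 27 and 29.

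Total counts were 2691619 to 4036860 per CTRL library and 2178682 to 3352029 per C269 library. Libraries 27 and 29 stood apart. They were the shallowest, at 2178682 and 2182375 counts, and 28S ribosomal RNA took 7.95% and 7.24% of their counts, where the CTRL libraries had 3.18% to 5.08%. They held 12208 and 13400 genes with at least 1 count, against 15775 to 17169 in CTRL. Their median correlation with the other 9 libraries was 0.776 and 0.788, where library 26 had 0.876 and the other 7 had 0.911 to 0.931. Fold changes and list medians are therefore given with and without them. Of the other C269 libraries, 26 also had a 28S share above the CTRL range, 6.43%. Library 28 had the lowest share of all 10, 2.48%, and library 30 lay inside the CTRL range. Libraries 26 and 28 held 15180 and 15677 genes with at least 1 count, both below the CTRL range. Values without libraries 27 and 29 still include library 26.

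Across all genes, 1 of 10943 tested genes was higher in C269 at an adjusted p under 0.05 (edgeR quasi-likelihood test, Benjamini-Hochberg), which is 0.00914% of those tested, and 0 were lower (0%). The gene was Cd24a. An unadjusted p under 0.05 was reached by 490 genes with higher values in C269 (4.48%) and by 235 with lower values (2.15%). The groups of 5 did not overlap in CPM for 66 higher genes (0.603%) and 70 lower genes (0.64%). DESeq2 called 17 genes higher and 1 lower, and limma voom with library weights called 1 and 0. Without libraries 27 and 29, edgeR called 0 of 11867 genes, of which 576 had an unadjusted p under 0.05. Of these, 281 had higher and 295 lower values in C269, so the larger number on the higher side was not seen without these 2 libraries. Past Cd24a the smallest adjusted p was 0.574, so all other genes described below are given by their values, without a call.

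**Figure D1:**
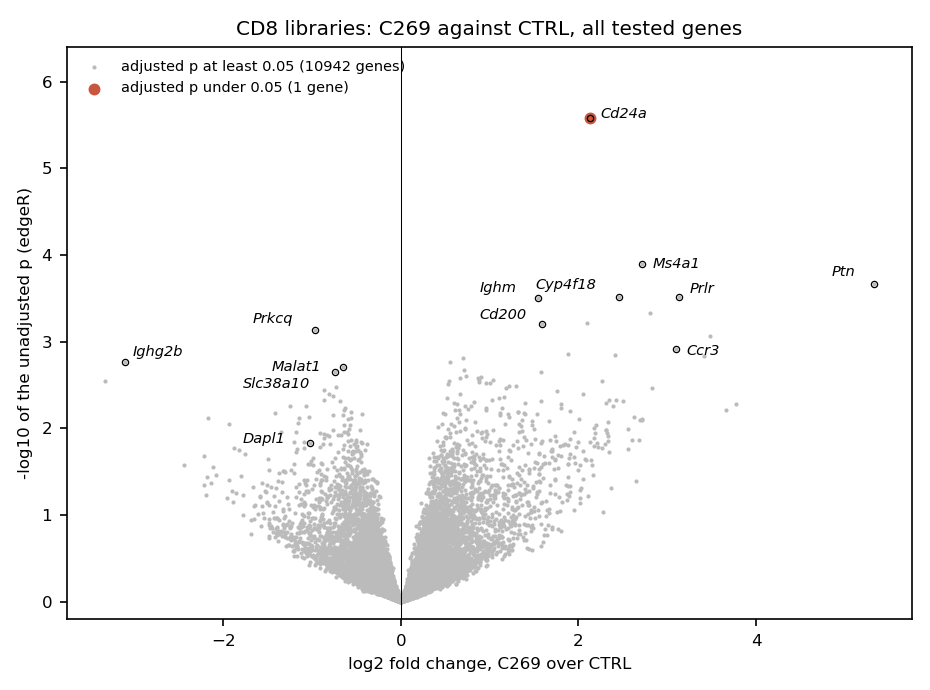
Log2 fold change of C269 over CTRL (x axis) against the negative log10 of the unadjusted edgeR p (y axis) for 10943 genes of the CD8 libraries. Each point is 1 gene, and only Cd24a, at 2.13, passed an adjusted p of 0.05.

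Cd24a encodes CD24, a small heavily glycosylated surface protein anchored by a lipid tail. It is known from immature T cells in the thymus and from activated T cells, and also from B cells, neutrophils and epithelial cells. The gene lies on chromosome 10 at chr10:43578284-43584265 on the plus strand (GRCm38) and is protein-coding. Its level was 16.1, 18.4, 24.9, 16.5 and 32.9 CPM in CTRL libraries 21 to 25 and 53.9, 149, 84.4, 109.7 and 79.4 CPM in C269 libraries 26 to 30. The groups did not overlap: the lowest C269 library, 26, was above the highest CTRL library, 25, and the highest values were those of libraries 27 and 29. Means were 21.8 ± 7.14 in CTRL against 95.3 ± 35.98 CPM in C269, and Cd24a rose by 2.13 on the log2 scale (SE 0.30; edgeR adjusted p = 0.0289). Its fold change was 1.74, SE 0.27 with libraries 27 and 29 left out, and the adjusted p of 0.0917 missed the threshold. With the 28S share or the depth as a covariate, the fold change was 1.90 and 1.73, and the edgeR adjusted p was 0.0787 and 0.675. Leaving out 1 library at a time gave adjusted p from 0.0132 to 0.199, and the call was kept only without CTRL library 25 and without C269 library 26.

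Cd24a was the only called gene among those of thymocytes and of T cells newly arrived from the thymus. Of 9 tested members of that list, Cd24a included, 4 had higher values in C269 and 5 lower, with a median log2 fold change of -0.16 (0.00 without libraries 27 and 29), where the median of all tested genes was 0.01.

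B cell genes, Ms4a1 and Ighm, were among the genes with the smallest p after Cd24a. Ms4a1, which encodes the B cell surface protein CD20, was at 2.81, 2.83, 4.19, 5.00 and 12.2 CPM in libraries 21 to 25 and 9.12, 52.4, 43.7, 46.9 and 24.6 CPM in libraries 26 to 30 (2.72, SE 0.54; 2.28, SE 0.54, without libraries 27 and 29). Library 26 lay inside the CTRL range and the other 4 C269 libraries above it. Ighm, the constant region of immunoglobulin M, was at 131, 169, 177, 105 and 131 CPM and 168, 376, 434, 824 and 261 CPM (1.55, SE 0.34; 1.01, SE 0.25, without these 2). Again library 26 was inside the CTRL range, and library 29 held the highest level. Ebf1 and Bank1, a transcription factor and a signalling adaptor of B cells, had fold changes of 1.20, SE 0.47 and 1.25, SE 0.55 (1.17, SE 0.49 and 0.66, SE 0.55, without libraries 27 and 29).

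Over the B cell list, 10 of 11 tested markers had higher values in C269, with a median of 0.77, and 9 of 11 did without libraries 27 and 29, with a median of 0.61. An unadjusted p under 0.05 was reached by 4 of them, where 4.48% of all tested genes reached it on that side. The 15 markers summed to 162 to 266 CPM in CTRL and to 219, 544, 675, 1019 and 407 CPM in libraries 26 to 30. None of these markers was at 0 in all 10 libraries. The groups' sums differed with a two-sided exact permutation p of 0.0397, or 0.212 after adjustment over the 16 library measures tested. In a bulk library, more B cells and more RNA per B cell cannot be told apart.

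Cd24a can be set beside these sums library by library. In library 26 Cd24a was at 53.9 CPM, above every CTRL library. The B cell markers of library 26 summed to 219 CPM, inside the CTRL range. Its neutrophil markers summed to 5766 CPM, above the CTRL maximum of 5233 CPM. In library 28 Cd24a was at 84.4 CPM. The epithelial and tumour markers of library 28 summed to 97.9 CPM, below every CTRL library. Its neutrophil markers summed to 2153 CPM, beside a CTRL minimum of 2156 CPM. Its B cell markers summed to 675 CPM, above the CTRL maximum of 266 CPM. In library 30 Cd24a was at 79.4 CPM and the B cell markers summed to 407 CPM, also above that maximum. Library 27, the highest for Cd24a, held the highest epithelial sum (1074 CPM; 110.1 to 199 CPM in CTRL), and library 29 the highest B cell, neutrophil and fibroblast sums. Erythroid and platelet genes summed to 262 to 695 CPM in CTRL. In libraries 26 to 30 they summed to 1011, 344, 165, 3046 and 335 CPM. Of 5 tested genes of that list 5 had higher values in C269 (median 1.12), and 5 of 7 did without libraries 27 and 29 (median 0.09). The part of these cells in the level of Cd24a was not tested.

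Immunoglobulin genes differed in opposite directions. Igkc, the kappa light chain constant region, was at 122, 115, 634, 346 and 246 CPM in CTRL against 291, 523, 615, 1552 and 299 CPM in C269 (1.20, SE 0.50; 0.47, SE 0.42, without libraries 27 and 29). The IgG heavy chain gene Ighg2b had lower values in C269, at 8.70, 8.49, 106, 50.4 and 37.6 CPM and 1.14, 0, 13.2, 4.45 and 4.10 CPM (-3.11, SE 0.82; -2.71, SE 0.80, without them). Ighg2c, a gene so similar to Ighg2b that reads may be split between the pair, was at 1.79 to 73.4 CPM in CTRL against 0 to 7.04 CPM in C269. CTRL libraries 23, 24 and 25 held the high values of both, and in CTRL libraries 21 and 22 Ighg2b was inside the C269 range. Sdc1, the plasma cell and epithelial surface protein syndecan-1, averaged 12.5 ± 5.18 in CTRL against 53.3 ± 29.7 CPM in C269 (2.10, SE 0.49; 1.48, SE 0.47, without libraries 27 and 29). Library 28 held 8.87 CPM of it, inside the CTRL range.

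**Figure D2:**
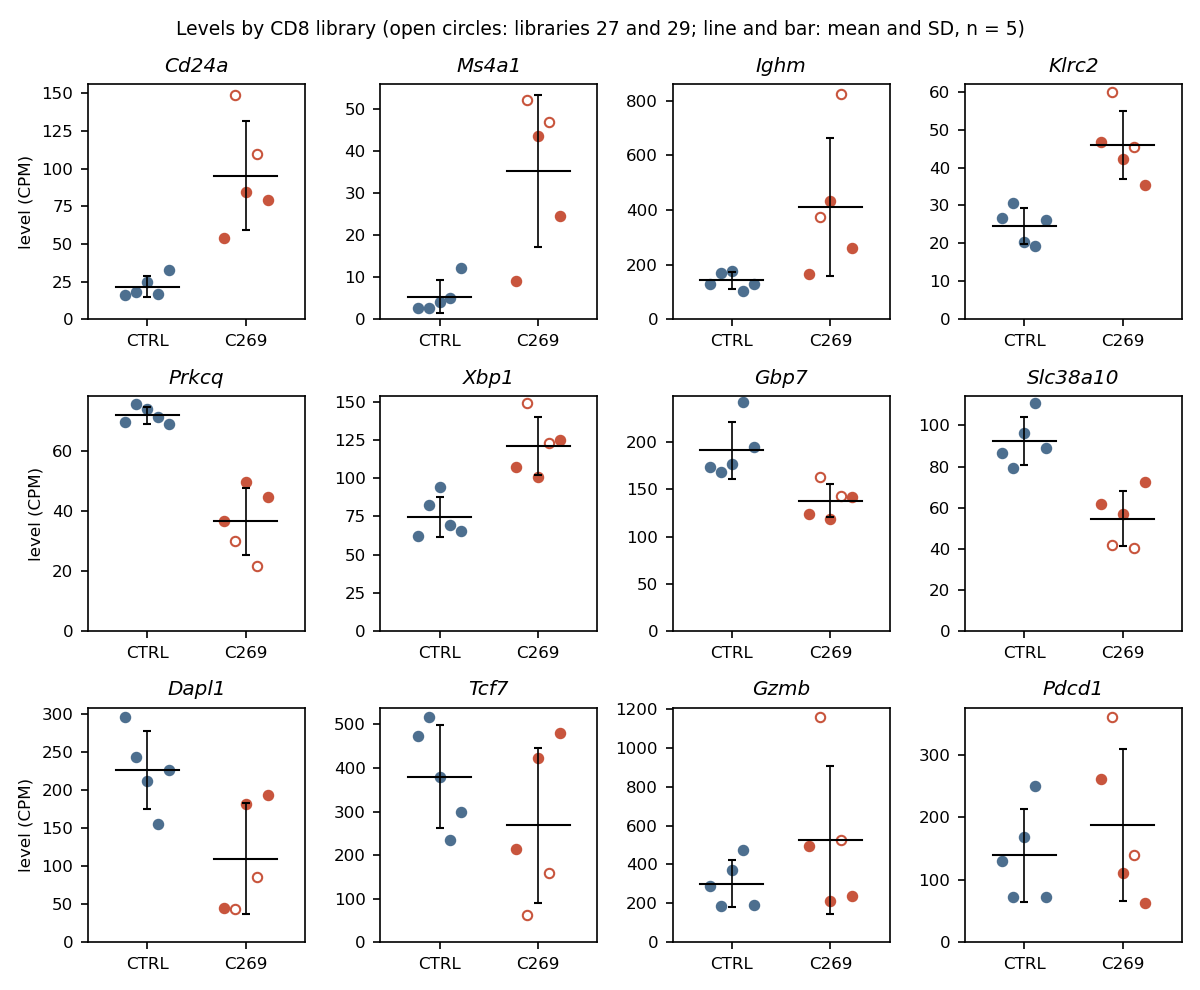
Level in CPM (y axes, from 0) of 12 genes in the CTRL and C269 libraries of CD8 cells, with 1 point a library, open circles for libraries 27 and 29, and lines and bars for the mean and SD. Cd24a, Klrc2, Prkcq, Xbp1, Gbp7 and Slc38a10 show no overlap between the groups, while the C269 points of Dapl1, Tcf7, Gzmb and Pdcd1 spread widely.

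On the side with lower values, the smallest p belonged to Prkcq, which encodes protein kinase C theta, the kinase that carries the T cell receptor signal to NF-kB and AP-1. Prkcq (chr2:11172108-11301222, plus strand, GRCm38) was at 69.8, 75.8, 74.3, 71.6 and 69.03 CPM in libraries 21 to 25 and 36.9, 29.9, 49.9, 21.7 and 44.7 CPM in libraries 26 to 30. The CTRL libraries lay close together, every C269 library was below them, and libraries 29 and 27 were the lowest. The log2 fold change was -0.96, SE 0.23 (edgeR adjusted p = 0.739), or -0.72, SE 0.19, without libraries 27 and 29. DESeq2 called it lower, and in the authors' deposited table its adjusted p was 0.0489.

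Neither Prkcq nor any other gene of the receptor pathway was called by edgeR. Of 24 proximal signalling genes, 8 had higher and 16 lower values in C269, with a median of -0.11, and -0.06 without libraries 27 and 29. Skap1, an adaptor that links the receptor to integrins, was at 197 to 268 CPM in CTRL against 114 to 202 CPM in C269 (-0.47, SE 0.18; -0.27, SE 0.15). Lcp2, the adaptor SLP-76, had a fold change of 0.44, SE 0.18 (0.23, SE 0.17, without libraries 27 and 29). The kinases Lck and Zap70, which start the signal, had fold changes of -0.06, SE 0.14 and 0.23, SE 0.20 (0.04, SE 0.14 and 0.28, SE 0.17, without libraries 27 and 29). Of 15 genes for receptor chains and co-receptors, 7 had higher and 8 lower values, none at an unadjusted p under 0.05. Their median was 0.00, and 0.03 without libraries 27 and 29.

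For genes of naive and central memory T cells, C269 libraries 26, 27 and 29 held low values of the leading members and libraries 28 and 30 values near CTRL, without a call for any gene. Libraries 26, 27 and 29 were also those with a 28S share above the CTRL range, and the cause of this split was not tested. Dapl1, a transcript known from naive T cells, was at 296, 243, 211, 155 and 227 CPM in CTRL against 45.6, 43.4, 181, 86.5 and 193 CPM in C269. Libraries 26, 27 and 29 were below every CTRL library for Dapl1, while 28 and 30 were inside the CTRL range (-1.03, SE 0.37; -0.69, SE 0.34, without libraries 27 and 29). Lef1, a transcription factor of naive and memory T cells, showed the same split, at 340.0, 490.0, 336, 184 and 244 CPM in CTRL against 77.1, 17.9, 317, 108 and 364 CPM in C269 (-0.84, SE 0.54). Tcf7, which encodes its partner TCF-1, averaged 380.4 ± 117 in CTRL against 268 ± 177 CPM in C269 (-0.49, SE 0.40), with 63.8 CPM in library 27.

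Without libraries 27 and 29 the fold changes of Tcf7 and Lef1 were -0.03, SE 0.27 and -0.34, SE 0.38. Over the list, 18 of 23 genes had lower values with all libraries (median -0.30) and 14 of 23 without them (median -0.11). With the 28S share as a covariate the fold changes of Tcf7 and Lef1 were -0.14, SE 0.33 and -0.51, SE 0.45. With the depth as a covariate they were 0.32, SE 0.31 and 0.03, SE 0.48. Bcl2, which keeps resting lymphocytes alive, averaged 452 ± 60.6 in CTRL against 322 ± 86.6 CPM in C269 (-0.48, SE 0.18; -0.34, SE 0.18). Cd44, an adhesion receptor raised on activated and memory T cells, is in this list and had higher values, at 432, 345, 317, 369 and 414 CPM and 667, 564, 349, 749 and 516 CPM (0.61, SE 0.19; 0.44, SE 0.18). Library 28 was inside the CTRL range for it and the other 4 C269 libraries were above.

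The effector genes Ccl5 and Gzmb had their highest values in the same 3 libraries. Ccl5, a chemokine stored by effector and memory CD8 cells, was at 997, 994, 1281, 1417 and 847 CPM in libraries 21 to 25 and 2963, 2838, 1363, 2607 and 878 CPM in libraries 26 to 30. It was above every CTRL library in 26, 27 and 29 only (0.95, SE 0.27; 0.65, SE 0.27, without libraries 27 and 29). Gzmb, the killing protease granzyme B, was at 289, 186, 369, 473 and 193 CPM and 497, 1155, 211, 525 and 239 CPM, with library 27 far above the rest (0.80, SE 0.38; 0.07, SE 0.29, without them). Prf1, which encodes perforin, averaged 159 ± 86.4 in CTRL against 186 ± 197 CPM in C269, and its fold change of 0.22, SE 0.49 became -0.49, SE 0.33, without libraries 27 and 29. Library 27 held 532 CPM of it, and the next C269 library 133 CPM.

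Ifng, the gene of interferon-gamma, was at 63.2, 58.00, 93.7, 135 and 81.5 CPM in CTRL against 118, 115, 36.7, 156 and 88.4 CPM in C269, with overlapping groups (0.27, SE 0.32; -0.09, SE 0.31, without libraries 27 and 29). Gzma, another granzyme, had lower means in C269, 100.5 ± 53.1 in CTRL against 60.99 ± 26.1 CPM in C269 (-0.70, SE 0.41; -0.40, SE 0.40). Of 24 cytotoxic genes, 17 had higher values with all libraries (median 0.19) and 8 of 24 without libraries 27 and 29 (median -0.03). Among natural killer receptors, Klrc2, a chain of the activating receptor NKG2C, was above every CTRL library in all 5 C269 libraries, at 26.6, 30.6, 20.4, 19.2 and 26.1 CPM and 46.7, 59.8, 42.2, 45.4 and 35.4 CPM (0.90, SE 0.25; 0.75, SE 0.25, without 27 and 29). Reads may be split between it and its close relative Klrc1. Kit, the stem cell factor receptor, averaged 42.8 ± 11.7 in CTRL against 24.2 ± 7.63 CPM in C269 (-0.80, SE 0.29; -0.69, SE 0.28).

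The PD-1 pair, which the study asked about, had overlapping groups. Pdcd1 was at 131, 73.3, 169, 251 and 72.2 CPM in CTRL libraries and 261, 361, 111, 139.8 and 63.02 CPM in C269 libraries, where libraries 26 and 27 were above the CTRL range and 30 below it (0.43, SE 0.41; 0.07, SE 0.40, without libraries 27 and 29). Cd274, the PD-L1 gene, was at 135, 103, 98.2, 118 and 155 CPM and 116, 61.3, 107, 118 and 166 CPM (-0.09, SE 0.24; 0.08, SE 0.20, without them). Pdcd1lg2, the second PD-1 ligand, averaged 13.2 ± 5.01 in CTRL against 23.9 ± 14.7 CPM in C269 (0.86, SE 0.45; 0.04, SE 0.40).

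Of 21 exhaustion and dysfunction genes, 15 had higher values in C269 (median 0.23) and 12 of 21 did without libraries 27 and 29 (median 0.11). Tox2, a nuclear factor of chronically stimulated and follicular T cells, had the largest fold change, from 0 to 3.33 CPM in CTRL to 4.56 to 23.9 CPM in C269 without overlap (3.41, SE 0.88; 2.70, SE 0.94). Its CTRL counts were 13, 1, 4, 0 and 1 reads, so the fold rests on few reads. Tox and Ctla4, a regulator of exhaustion and an inhibitory receptor, had 0.28, SE 0.25 and 0.23, SE 0.18 (0.33, SE 0.25 and 0.24, SE 0.19, without libraries 27 and 29). Icos, a costimulatory receptor, averaged 318 ± 47.1 in CTRL against 447 ± 183 CPM in C269 (0.50, SE 0.22; 0.55, SE 0.24). Cd200, whose protein restrains myeloid cells, was at 29.7, 17.5, 29.9, 47.7 and 16.8 CPM and 69.9, 147, 49.9, 119.5 and 38.8 CPM (1.59, SE 0.37; 0.91, SE 0.31). Its C269 libraries 27 and 29 were the highest, and library 30 was inside the CTRL range. Slamf1 and Ly9, receptors of the SLAM family, had -0.71, SE 0.27 and -0.84, SE 0.37 (-0.62, SE 0.25 and -0.47, SE 0.30, without libraries 27 and 29).

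Genes of the interferon-gamma response had lower values in C269, and this was also so without libraries 27 and 29. Gbp7, a guanylate-binding protein induced by interferon, was at 174, 169, 177, 243 and 195 CPM and 123, 163, 119, 143 and 142 CPM, with every C269 library below every CTRL library (-0.46, SE 0.16; -0.58, SE 0.16, without these 2). Irf1, a transcription factor induced by interferon-gamma, was at 667 to 979 CPM in CTRL against 198 to 884 CPM in C269, with library 27 the lowest (-0.63, SE 0.28; -0.44, SE 0.19). Gbp2 and the immunity-related GTPase Ifi47 had -0.51, SE 0.22 and -0.40, SE 0.17 (-0.69, SE 0.23 and -0.38, SE 0.17, without libraries 27 and 29).

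In all, 18 of 22 tested genes of this list had lower values (median -0.32), and 20 of 24 without libraries 27 and 29 (median -0.28). Of them 6 were lower at an unadjusted p under 0.05, where 2.15% of all tested genes were. None passed after adjustment (edgeR, adjusted p = 0.739 for Gbp7). The receptor chain Ifngr1 had higher values, 620.4 to 798 CPM in CTRL against 631 to 1103 CPM in C269 (0.34, SE 0.18; 0.36, SE 0.16), as did the GTPase Irgm2 (0.76, SE 0.45; 0.11, SE 0.42).

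Some macrophage genes also had lower values, and their part in the interferon-gamma list was not tested. Cxcl9, a T cell chemoattractant made by macrophages under interferon-gamma, was at 30.7, 29.1, 61.7, 85.03 and 56.2 CPM in CTRL against 31.5, 26.9, 19.3, 4.94 and 31.7 CPM in C269 (-1.18, SE 0.41; -0.92, SE 0.33). C1qb and C1qc, complement subunits made by macrophages, averaged 69.3 ± 25.5 and 130.2 ± 57.9 CPM in CTRL against 31.1 ± 18.9 and 69.03 ± 47.7 CPM in C269 (-1.16, SE 0.39; -1.20, SE 0.34 for C1qb and -0.92, SE 0.39; -1.25, SE 0.34 for C1qc). Macrophage and monocyte markers summed to 2010.4 to 4140.3 CPM in CTRL and to 3186, 4707, 1712, 2552 and 1948 CPM in libraries 26 to 30. Of 18 such markers 9 had lower values with all libraries (median -0.03) and 16 of 18 without 27 and 29 (median -0.40). In library 27 the macrophage sum was above every CTRL library while Irf1 was at 198 CPM, its lowest level. Gbp7 went the other way, at 163 CPM in library 27, its highest C269 level. Library 28, with the lowest macrophage sum, held the lowest Gbp7 level, 119 CPM.

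Other interferon genes gave a different picture. Of 24 genes stimulated by type I interferon, 16 had higher values with all libraries (median 0.20), and 9 of 25 without libraries 27 and 29 (median -0.22). Ifi209, an interferon-induced DNA sensor relative, was at 134 CPM in library 27 and at 16.5 to 37.6 CPM in CTRL (0.93, SE 0.40; 0.21, SE 0.29). For MHC class I presentation, 12 of 18 genes had lower values (median -0.08; -0.14 without libraries 27 and 29). Tap2, a subunit of the peptide transporter, averaged 125 ± 27.01 in CTRL against 81.9 ± 16.95 CPM in C269 (-0.59, SE 0.21; -0.44, SE 0.19). Tapbpl, a peptide editor of class I molecules that is outside the list and was named after its values were seen, was below every CTRL library in all 5 C269 libraries, at 62.2, 56.3, 64.1, 75.02 and 62.2 CPM and 46.7, 16.95, 46.8, 28.7 and 33.2 CPM (-0.87, SE 0.26; -0.59, SE 0.20). B2m, the light chain of class I molecules, had 0.33, SE 0.15, or 0.05, SE 0.11, without libraries 27 and 29.

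**Figure D3:**
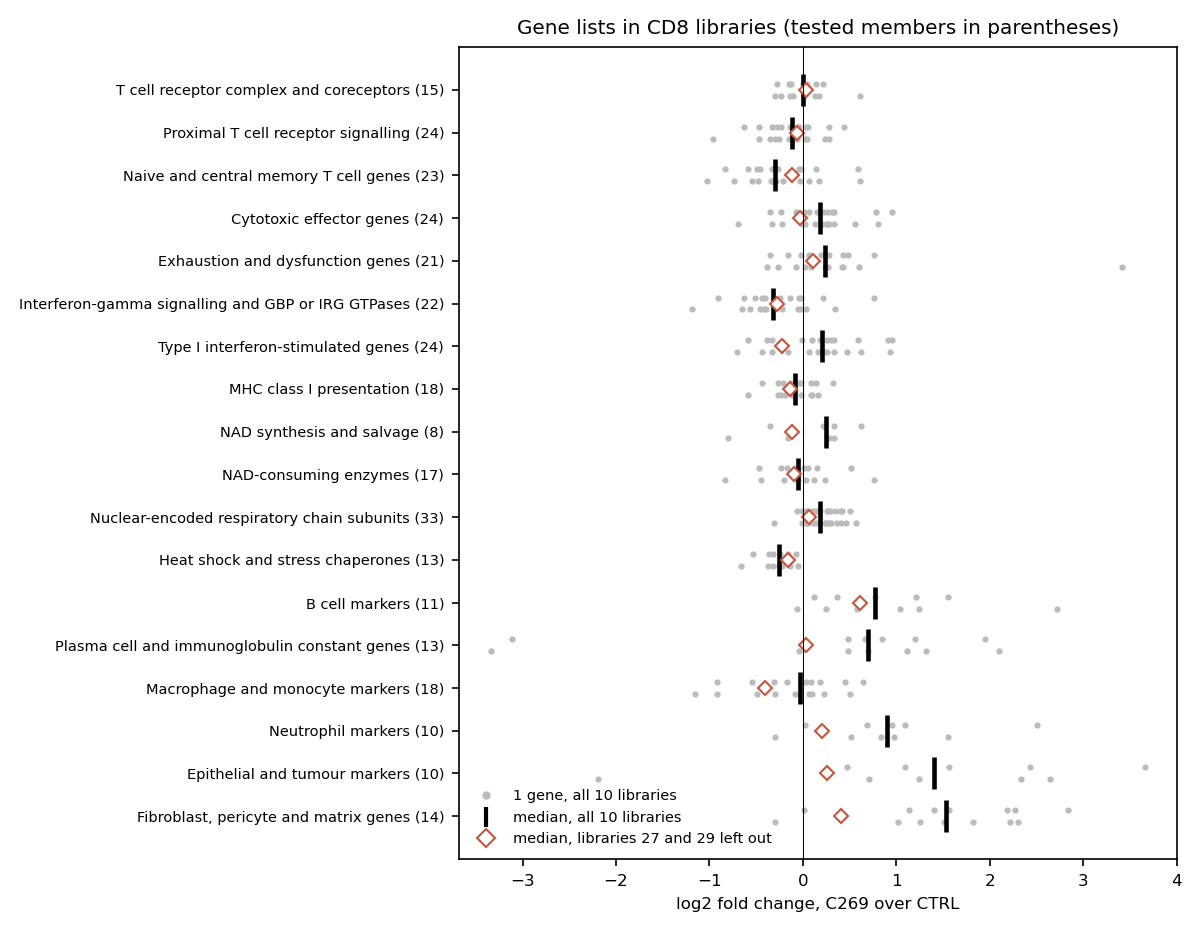
Log2 fold changes of C269 over CTRL (x axis) for the tested members of 18 gene lists, 1 a line, with 1 grey point a gene, black bars for the median over all 10 libraries and open diamonds for the median without libraries 27 and 29. The interferon-gamma list has medians of -0.32 and -0.28, while the medians of the epithelial and fibroblast lists drop from 1.40 and 1.53 to 0.26 and 0.40.

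Genes of NAD metabolism, the pathway of the antibody's target, gave no call. Nampt was at 90.6, 70.7, 94.3, 95.4 and 99.4 CPM in CTRL against 103, 154, 85.96, 89.4 and 89.5 CPM in C269, where library 27 was far above the CTRL range, 26 just above it and the other 3 within it (0.21, SE 0.19; 0.04, SE 0.17, without 27 and 29). C269 binds the protein outside cells, so this transcript does not check the treatment. Of 21 genes of NAD synthesis and salvage, 8 passed the filter on low counts, 5 with higher and 3 with lower values (median 0.24). Without libraries 27 and 29, 11 passed it, 5 with higher and 6 with lower values, and the sign of the median turned (-0.11). Nadk, which makes NADP from NAD, averaged 45.3 ± 10.3 in CTRL against 56.9 ± 6.13 CPM in C269 (0.33, SE 0.21; 0.32, SE 0.23). Of 17 tested NAD-consuming enzymes 8 had higher and 9 lower values (median -0.05; -0.09 without libraries 27 and 29), with Sirt2, a cytosolic deacetylase, at -0.47, SE 0.25 (-0.18, SE 0.21, without libraries 27 and 29). Tlr4 was at 0.283 to 8.68 CPM in CTRL against 4.10 to 33.6 CPM in C269, with only library 29 above 12 CPM. Among purinergic genes, P2ry14, a receptor for UDP-glucose, was above every CTRL library in 4 of 5 C269 libraries (1.01, SE 0.37; 0.66, SE 0.33).

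Energy and stress genes had small differences, with no call. Of 33 nuclear-encoded subunits of the respiratory chain, 29 had higher values in C269 with a median of 0.18, and 21 without libraries 27 and 29 with a median of 0.07. Ndufa1, a complex I subunit, was at 127, 124, 136, 140.4 and 97.3 CPM and 138, 289, 149, 223 and 125 CPM (0.57, SE 0.22; 0.14, SE 0.16). The mitochondrially encoded complex I subunit mt-Nd4 averaged 5944 ± 1255 in CTRL against 4366 ± 527 CPM in C269 (-0.44, SE 0.14; -0.42, SE 0.16). Heat shock and chaperone genes had lower values in 13 of 13 cases (median -0.26; 12 of 13 and -0.16 without 27 and 29). Hspa1a, an inducible Hsp70 chaperone that also responds to tissue handling, was at 1561, 1419, 1170.2, 998 and 2462 CPM and 723, 659, 1516, 837 and 1506 CPM (-0.53, SE 0.28; -0.29, SE 0.27). In libraries 28 and 30 it was inside the CTRL range.

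Of 21 endoplasmic reticulum and unfolded protein genes 14 had higher values (median 0.09), 5 of them at an unadjusted p under 0.05, which 4.48% of all tested genes reached on that side. Without libraries 27 and 29, 10 of 21 had higher values (median 0.00), 2 at an unadjusted p under 0.05. Xbp1, the transcription factor of that response and of plasma cells, was above every CTRL library in all 5 C269 libraries, at 62.4, 82.6, 94.02, 69.6 and 65.8 CPM and 107, 149.6, 101, 123 and 125 CPM (0.70, SE 0.18; 0.57, SE 0.18). Among regulators of cell death, Bcl2l1, the survival protein BCL-XL, was at 60.1, 44.4, 54.5, 63.5 and 55.4 CPM and 135, 86.8, 79.8, 71.1 and 67.1 CPM with no overlap (0.67, SE 0.22; 0.76, SE 0.22). Bcl2a1b, from a family of near-identical copies among which reads may be split, averaged 67.9 ± 24.5 in CTRL against 138 ± 63.1 CPM in C269 (1.03, SE 0.29; 0.70, SE 0.27). Of 31 cell cycle genes, 22 had higher values (median 0.16; 0.10 without libraries 27 and 29), and Mki67, a marker of cycling cells, had -0.15, SE 0.21 (-0.03, SE 0.20, without libraries 27 and 29). Of 36 ribosomal protein genes, 25 had lower values (median -0.07; -0.03 without libraries 27 and 29). Malat1, an abundant nuclear non-coding RNA, averaged 9879 ± 1343 in CTRL against 6238 ± 1822 CPM in C269 (-0.66, SE 0.18; -0.41, SE 0.14), lowest in libraries 27 and 29.

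Lists for cytokine, migration and activation signals had medians between -0.15 and 0.20, and each median is followed here by that without libraries 27 and 29. Of 22 cytokine receptors 9 had higher values (median -0.15; -0.09), and Il6ra, the receptor for interleukin-6, was at 71.2 to 132 CPM in CTRL against 34.4 to 121 CPM in C269 (-0.78, SE 0.31; -0.46, SE 0.28). Of 18 genes of cytokine signalling kinases, factors and inhibitors 10 did (median 0.02; 0.11), with Socs2, a feedback inhibitor of cytokine signals, at 0.79, SE 0.34 (0.82, SE 0.31, without libraries 27 and 29). The chemokine receptor list had 11 of 18 (median 0.10; 0.06), and the tissue residency list 9 of 13 (median 0.15; 0.18). In the latter, Rgs1, which dampens chemokine receptor signals, was at 894, 1074, 1023, 1053 and 991 CPM and 2199, 901, 1212, 1758 and 1133 CPM (0.53, SE 0.21; 0.58, SE 0.18). AP-1 and immediate early genes had higher values in 8 of 24 members (median -0.07; -0.13) and in 4 without libraries 27 and 29. For NF-kB genes the counts were 9 of 24 and 12 of 24 (median -0.12; 0.00), and for glycolysis genes 15 of 21 and 12 of 21 (median 0.20; 0.01).

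Markers of other cells were present in these bead-isolated libraries. The highest epithelial sum was that of C269 library 27 and the highest fibroblast sum that of C269 library 29. Fibroblast and matrix markers summed to 918 to 1849 CPM in CTRL and to 1392, 2101, 736, 9878 and 3615 CPM in libraries 26 to 30. Library 29 exceeded every other library for this sum, and libraries 30 and 27 were also above the CTRL range. Postn, the matrix protein periostin, was at 14.8, 3.68, 11.1, 11.5 and 15.02 CPM and 17.9, 52.9, 8.26, 156 and 32.8 CPM (2.27, SE 0.64; 0.80, SE 0.48, without libraries 27 and 29). Epcam, an epithelial adhesion molecule, was at 4.35, 2.83, 6.29, 3.46 and 5.01 CPM and 5.70, 64.3, 1.84, 34.6 and 13.8 CPM, with library 27 the highest (2.42, SE 0.73; 0.68, SE 0.68). Of 10 tested epithelial and 14 tested fibroblast markers, 9 and 13 had higher values in C269. Of the 18 markers of each list, 1 epithelial marker (Wap) was at 0 in all 10 libraries. Without libraries 27 and 29 the counts of markers with higher values were 8 of 12 and 12 of 14.

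Neutrophil markers summed to 2156 to 5233 CPM in CTRL and to 2153 to 9419 CPM in C269, with higher values for 9 of 10 tested markers (median 0.90; 0.21 without 27 and 29). Ltf, the granule protein lactoferrin, was at 131 and 75.1 CPM in libraries 27 and 29 and at 4.94 to 14.9 CPM in the other 3 C269 libraries, against 1.70 to 18.2 CPM in CTRL. Of 9 tested CD4 and regulatory T cell markers 8 had higher values (median 0.41; 0.18 without 27 and 29). None of the 16 library measures, from depth and 28S share to the marker sums, passed the threshold after adjustment (two-sided exact permutation tests, smallest adjusted p = 0.19, smallest possible unadjusted p = 0.00794). A single measure at that smallest p could not pass over 16 tests, so these tests do not show that the groups were alike. The smallest unadjusted exact permutation p were 0.0159 for genes with at least 1 count and 0.0238 for Malat1, both lower in C269.

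**Figure D4:**
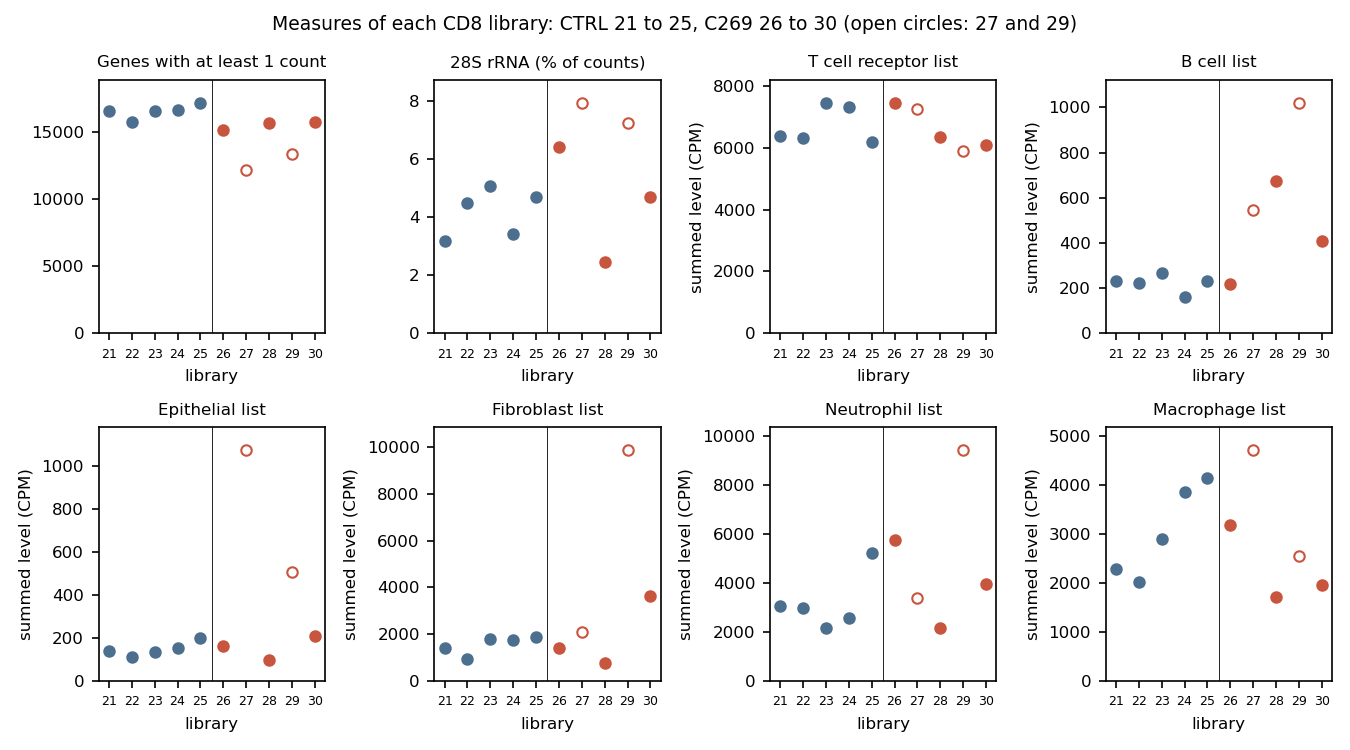
Number of genes with at least 1 count, share of 28S ribosomal RNA in percent, and summed level in CPM of 6 marker lists (y axes, from 0) for each CD8 library (x axes), with open circles for libraries 27 and 29. The T cell receptor list lies between 5884 and 7442 CPM in all 10 libraries, while the fibroblast and neutrophil sums are highest in library 29 and the epithelial and macrophage sums in library 27.

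The remaining genes with the smallest p on the higher side, named after their values were seen, were of mixed kinds. Cyp4f18, a fatty acid hydroxylase of leukocytes, was at 3.07, 3.39, 5.39, 4.23 and 4.29 CPM in CTRL against 13.7, 33.9, 39.5, 19.8 and 5.59 CPM in C269, with no overlap (2.46, SE 0.53; 2.27, SE 0.55, without libraries 27 and 29). Ccr3, the eotaxin receptor, had 0 to 2.30 CPM in CTRL against 3.95 to 15.6 CPM in C269 (3.10, SE 0.78; 3.18, SE 0.77), from at most 9 reads per CTRL library. Prlr, the prolactin receptor, was at 3.07, 4.53, 4.19, 9.62 and 9.66 CPM and 5.70, 143, 18.97, 75.6 and 29.5 CPM (3.14, SE 0.68; 1.56, SE 0.54). Ptn, the growth factor pleiotrophin, had 315 CPM in library 27 and at most 41.5 CPM in the other C269 libraries (5.33, SE 1.11; 2.47, SE 0.85). The matrix genes Ogn and Cpxm1 were highest in library 29, at 91.4 and 113 CPM.

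On the lower side, Slc38a10, an amino acid transporter, was below every CTRL library in all 5 C269 libraries, at 86.5, 79.5, 96.1, 111 and 89.1 CPM and 61.5, 41.9, 56.9, 40.5 and 72.3 CPM (-0.74, SE 0.20; -0.54, SE 0.18). Tagap, a GTPase-activating protein of activated T cells, averaged 185 ± 46.95 in CTRL against 111 ± 23.7 CPM in C269 (-0.73, SE 0.21; -0.74, SE 0.23). Hmgn5, a nucleosome-binding protein, averaged 53.3 ± 8.63 in CTRL against 29.1 ± 8.98 CPM in C269 (-0.86, SE 0.25; -0.77, SE 0.25).

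For CD8 cells, the authors' deposited table gives an adjusted p under 0.05 to 13 genes, 12 higher and 1 lower in C269, and Cd24a is the only 1 of them that edgeR called here. The 12 include Cd24a, Ms4a1, Prlr, Cyp4f18, Cpxm1, Ighm, Ccr3, Ogn, Sdc1, Tox2 and Cd200, and the lower gene is Prkcq. In that deposited table the log2 fold change of Cd24a, turned to C269 over CTRL, is 1.84.

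Whether the C269 effect in CD8 cells differed from that in CD4 cells was tested over the 20 T cell libraries. Of 13264 genes, 0 had an adjusted p under 0.05 for this difference (0%; edgeR), 561 had an unadjusted p under 0.05, and DESeq2 called 0. So no gene, Cd24a included, was shown to respond in CD8 cells in another way than in CD4 cells. Cd24a averaged 43.9 ± 14.3 CPM in CD4 CTRL and 69.8 ± 22.1 CPM in CD4 C269. Its C269 effect was 2.11 in CD8 and 0.67 in CD4 cells, a difference of 1.44 (SE 0.40; edgeR adjusted p = 0.986), or 1.08 without libraries 27 and 29. Levels were 29.5 to 63.1 CPM in CD4 CTRL against 16.1 to 32.9 CPM in CD8 CTRL.

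Among the genes with the smallest p for the difference, Slc38a10 averaged 92.4 ± 11.9 and 54.6 ± 13.5 CPM in CD8 CTRL and C269, and 102 ± 16.7 and 117 ± 7.94 CPM in CD4 (difference -0.94, SE 0.23). Rrp15, a ribosome assembly factor, averaged 26.7 ± 4.38 and 44.7 ± 11.7 CPM in CD8, and 34.3 ± 7.06 and 23.3 ± 4.44 CPM in CD4 (difference 1.29, SE 0.33). Gm43328, Fam149a, Hap1 and Nr5a2 complete the 6 genes taken by p among those with a mean of at least 5 CPM in 1 of the 4 groups. They had at most 1 read in any CD8 C269 library and at most 20 in a CD8 CTRL library, so no fold is given. Kit and Gbp7 had differences of -1.24 and -0.62, with lower values under C269 in CD8 and effects of 0.42 and 0.14 in CD4 cells.

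**Figure D5:**
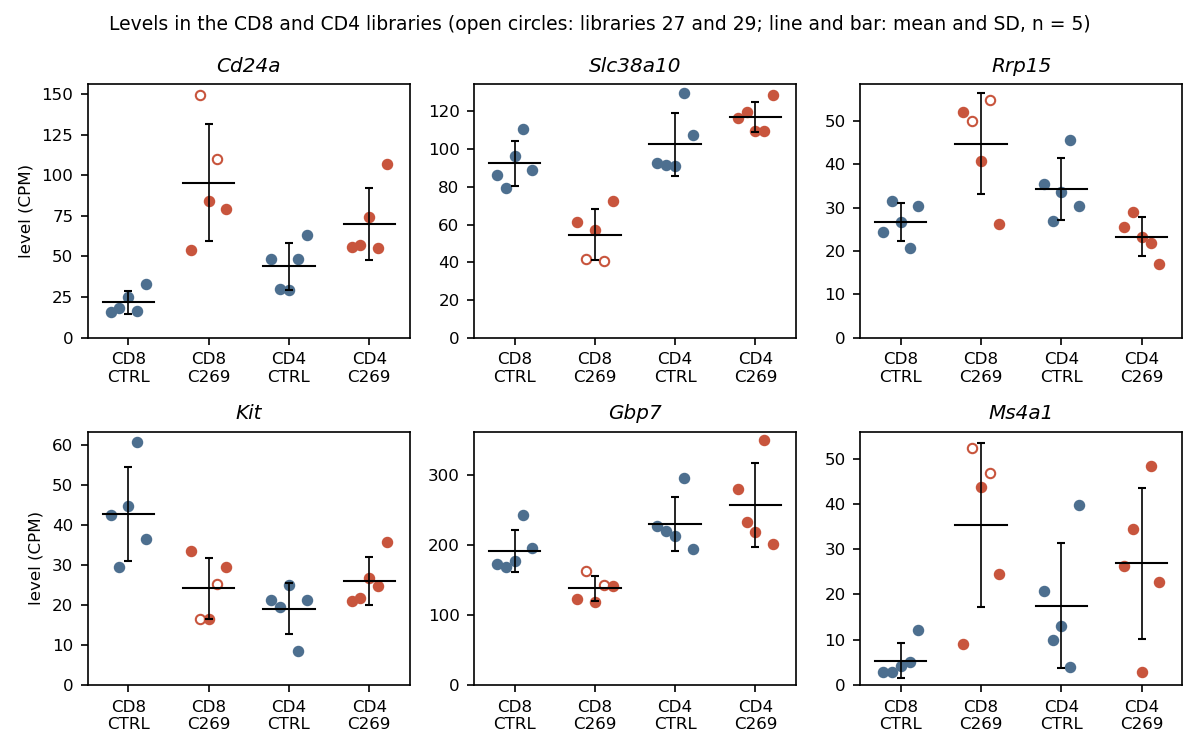
Level in CPM (y axes, from 0) of 6 genes in the CTRL and C269 libraries of CD8 and CD4 cells, with 1 point a library, open circles for libraries 27 and 29, and lines and bars for the mean and SD. Cd24a is higher under C269 in CD8 cells, at 95.3 ± 35.98 against 21.8 ± 7.14 CPM. Its CD4 means, 43.9 (CTRL) and 69.8 CPM (C269), lie between these means, while single CD4 libraries range from 29.5 to 106.7 CPM.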

How the data were processed

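RNA from CD8+ T cells of 4T1 tumours was sequenced in 10 libraries of 5 CTRL and 5 C269 samples, and 10 CD4 libraries served for the test of the difference. The authors deposited raw counts per gene and library, made with featureCounts, per the submitters' processing notes, which give no aligner. The deposited table also holds the authors' DESeq2 results, which are a mean count over size factors (a signal value), a log2 fold change of CTRL over C269, and a p-value with its adjusted p-value. The notes name mm9, but 54891 of 55408 gene identifiers share chromosome and start with the GENCODE M21 annotation of GRCm38, whose coordinates are given. Counting by strand is not given in the sources used here.

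The 7 ribosomal RNA genes, 4.73% of the counts, entered neither library sizes nor tests. CPM is the count per 1000000 counts assigned to the other genes. Genes were tested with edgeR 4.0.16 (filterByExpr, TMM scaling, quasi-likelihood test, Benjamini-Hochberg, threshold 0.05) in R 4.3.3, and the scripts were tested on simulated data. A standard error is the absolute log2 fold change over the square root of F. Alternatives were DESeq2 1.42.0, limma 3.58.1 voom, other scaling and filters, covariates, all 20 T cell libraries in 1 fit, and libraries left out. Library measures were tested by exact permutation over 252 assignments in scipy 1.17.1.

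The genes and the 43 lists were chosen with earlier results of these data known. Genes were named as called genes or, in a direction without one, the 6 with the smallest p and a mean of at least 5 CPM in the higher group, as the 2 to 4 leading genes of each list, as a fixed set (such as Nampt, Pdcd1 and Cd274), and as the 6 genes with the smallest p for the difference and a mean of at least 5 CPM in 1 group. Genes named beyond these were chosen after their values were seen, and some genes are not reported here. Of 748 listed symbols 746 were found. Replicate libraries differed by more than sampling noise (chi-square per gene of 7.47 to 37.8). At these depths 1 read is 0.256 to 0.499 CPM.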

Additional observations from a re-analysis of the deposited data

Results flagged for a closer look

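A library far from the other 4 of its group was looked for in 125 levels of genes and lists in each group. For independent values with a normal spread, chance marks about 1 in 20 groups. The levels were taken without a log scale, and many genes were chosen by their values, so that share is no fair yardstick here. Such a library was found in 22 of 250 groups (8.80%), 6 of them in library 27 and 8 in library 29. Library 27 stood far above the other C269 libraries for Cd4 (27.9 CPM), Prf1 (532 CPM), Il12rb1, a chain of the interleukin-12 receptor (68.3 CPM), Ifi209 (134 CPM), Nampt (154 CPM) and Ptn (315 CPM).

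Library 29 stood above the rest for Igkc (1552 CPM), Tlr4 (33.6 CPM), the matrix genes Lum (92.4 CPM), Ogn (91.4 CPM) and Cpxm1 (113 CPM), the cytokine Il6 (159 CPM) and the summed plasma cell and immunoglobulin genes (3126 CPM). It stood below them for Lck, at 415 CPM. In library 26 Bcl2l1 was at 135 CPM, above the other C269 libraries.

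Among the CTRL libraries, 25 was far above the others for Ms4a1 (12.2 CPM), the chaperone Hsp90ab1 (4068 CPM) and the neutrophil markers (5233 CPM). Library 24 was above them for the chemokine receptor Cxcr6 (312 CPM) and below them for Irf1 (667 CPM) and the NF-kB subunit Relb (58.5 CPM). Library 23 was above them for Il12rb1 (12.9 CPM).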

How the results depend on the processing

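The count of called genes depended on the setting. DESeq2 called 17 genes higher and 1 lower, edgeR without a filter on low counts 127 and 35, and a fit of all 20 T cell libraries 3 and 0. It was 0 and 0 without libraries 27 and 29 and with the 28S share or the depth as a covariate. Leaving out 1 library at a time gave 0 to 1 higher and 0 lower. Cd24a kept its direction in all of these settings. Its log2 fold change was 1.74 without libraries 27 and 29, 1.90 with the 28S share and 1.73 with the depth as a covariate, and 1.93 to 2.33 with 1 library left out. It missed the threshold in the first 3 and in 8 of the 10 last, with edgeR adjusted p from 0.0132 to 0.675 over these 13. The causes were not tested.

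Of 109 genes followed through the settings, 95 kept their sign in every setting. Many of these genes were named for a small p or after their values were seen, and the settings share libraries. The count is therefore no independent check. Without libraries 27 and 29 the sign changed for Lck (0.0378), Cd4 (-0.18), Ccr7 (0.0397), Prf1 (-0.49), Ifng (-0.0894) and Cd274 (0.0845). With the 28S share it changed for Ccr7 (0.0667), Prf1 (-0.25), Ifng (-0.30), Pdcd1 (-0.0581) and Cd274 (0.0603). With the depth it changed for Lck (0.0522), Cd4 (-0.0104), Tcf7 (0.32), Lef1 (0.0282), Ccr7 (0.26), S1pr1 (0.11), Gzmb (-0.14), Prf1 (-0.51), Ifng (-0.50), Pdcd1 (-0.14), Cd274 (0.0107) and Nampt (-0.0115). With voom it changed for Lck (0.00394), Prf1 (-0.40), Ifng (-0.0788), Pdcd1 (-0.0298) and Cd274 (0.00172). Cd8a became 0.00387 with DESeq2 and 0.00516 with RLE scaling, and Cd3e -0.0277 without a filter and -0.00402 in the fit of 20 libraries. With 1 library left out the ranges spanned 0 for Lck (-0.13 to 0.0173), Cd8a (-0.18 to 0.0997), Cd3e (-0.0630 to 0.0698), Cd4 (-0.16 to 0.97), Prf1 (-0.65 to 0.55) and Cd274 (-0.27 to 0.0655). Over the members tested with all 10 libraries, the medians of 7 of the 43 lists changed sign without libraries 27 and 29. The difference between CD8 and CD4 cells had 0 calls in every setting run.

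No paired analysis was possible because the library columns carry no replicate letters that match the sample labels.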

Other observations

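The other gene groups held no called gene. Of 12 tested killer lectin and NK receptor genes, 9 had higher values in C269 (median 0.41), and 7 of 12 did without libraries 27 and 29 (median 0.05). Costimulatory receptors had 7 higher and 7 lower (median -0.03; -0.14 without libraries 27 and 29), and PD-1 ligands with their B7 relatives 4 and 3 (median 0.46; 0.08 without libraries 27 and 29). Purinergic genes had 4 higher and 9 lower values (median -0.19; -0.03 without libraries 27 and 29). Dendritic cell and MHC class II genes had higher values in 9 of 13 cases (median 0.08; 0.02 without libraries 27 and 29).

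Cd8b1, the beta chain of the CD8 co-receptor, was at 412, 418, 576, 565 and 437 CPM in CTRL libraries 21 to 25 and at 391, 512, 385, 316 and 442 CPM in C269 libraries 26 to 30 (-0.23, SE 0.15; -0.24, SE 0.15). Library 29 was the lowest of the C269 libraries and library 27 the highest. In the fit of all 20 T cell libraries the C269 effect on Cd8b1 was -0.25 in CD8 and 0.62 in CD4 cells. The difference was -0.86 (SE 0.27; edgeR adjusted p = 0.986), without a call. Cd8b1 averaged only 17.5 ± 5.92 CPM in CD4 CTRL and 27.3 ± 3.86 CPM in CD4 C269. The larger part of the difference was thus the higher value of this low level in CD4 C269, not a lower value in CD8 cells. Ccr7, the lymph node homing receptor of naive T cells, was at 792, 896, 523, 448 and 709 CPM and 356, 209, 787, 589 and 940.0 CPM (-0.21, SE 0.33; 0.04, SE 0.27). S1pr1, which guides T cells out of tissue, was at 293, 351, 235, 125 and 188 CPM and 151, 67.8, 216, 138 and 213 CPM (-0.59, SE 0.31; -0.31, SE 0.27).

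Srgn, the proteoglycan serglycin that packs granzymes into granules, was at 1353, 1256, 1193, 1130.3 and 1394 CPM in CTRL and 1599, 1959, 1548, 1657 and 1163 CPM in C269 (0.33, SE 0.14; 0.18, SE 0.14). Egr3, an early gene of T cell receptor signals, averaged 19.1 ± 3.22 in CTRL against 30.03 ± 8.21 CPM in C269 (0.66, SE 0.30; 0.50, SE 0.28). S100a8, an abundant neutrophil calcium-binding protein, was at 136, 123, 216, 197 and 209 CPM and 351, 78.3, 145, 923 and 185 CPM (0.97, SE 0.49; 0.36, SE 0.25).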
